A study of Mus musculus with 10 samples.

Results

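The 3p arms of the let-7 microRNAs are the minor, or passenger, strands of a family known mainly for its 5p arms. They were followed here in small extracellular vesicles of brown fat and plasma from C57BL/6J mice. The set was named as 8 mature miRNAs: let-7a-1-3p, let-7a-2-3p, let-7c-1-3p, let-7c-2-3p, let-7d-3p, let-7e-3p, let-7f-1-3p and let-7f-2-3p. Since let-7c-2-3p and let-7a-1-3p have the same sequence and the same reads in every library, they count once, which leaves 7 distinct members. All 8 names are among the 679 miRNAs of the brown fat table, and 6 names (5 distinct) are among the 436 of the plasma table, of 721 miRNAs in all. The vesicles are from plasma or from brown adipose tissue (BAT), with 3 libraries titled Sed and 3 titled Exe for BAT, and 2 of each for plasma. The descriptions of the plasma libraries carry wt, read here as wild type, and those of the BAT libraries carry no such entry. Exe is read as trained and Sed as untrained, although the labels give every sample, Sed included, the same exercise entry of 90 min sessions, 2 a day, for 4 weeks. Nothing says that the libraries come from separate animals, so each spread and p-value covers only these libraries and may be technical. The set was chosen by arm and family with the Exe against Sed read counts of BAT vesicles already known, so BAT values of that contrast are given as a description. Calls among members there are counted only beside the share of all miRNAs called and support nothing. Comparisons of BAT with plasma use the same BAT counts, so their p-values are not independent of that choice.

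A miRNA gene is transcribed as a long precursor that is cut to a short hairpin and then to a duplex of 2 strands, named 5p and 3p for their side of the hairpin. An Argonaute protein usually keeps 1 strand, the guide, and the other, the passenger, is mostly degraded. For let-7 the guide is the 5p arm, whose seed (bases 2 to 8, which pair with target mRNAs) is shared by the whole family. The 5p arms restrain growth and developmental timing genes and are kept low in stem cells by LIN28. The 3p arms have several seeds, some of them shared, and are alike enough that some differ by few bases or none.

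The mature 3p sequences, from RefSeq (GRCm38.p6), are shown because which reads can be assigned to which member rests on them. Capitals mark the seed.
let-7c-2-3p and let-7a-1-3p: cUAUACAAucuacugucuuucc
let-7f-1-3p: cUAUACAAucuauugccuuccc
let-7f-2-3p: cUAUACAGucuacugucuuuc
let-7d-3p: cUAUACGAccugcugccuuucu
let-7e-3p: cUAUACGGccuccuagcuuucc
let-7a-2-3p: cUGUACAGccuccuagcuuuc
let-7c-1-3p: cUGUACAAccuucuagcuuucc
let-7d-5p: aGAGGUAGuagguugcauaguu

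Of the first 21 positions, counted from the 5′ end, 12 hold the same base in all 7 sequences and 9 vary, so the 7 sequences fall into 6 seeds. The seed UAUACAA is carried by the let-7c-2-3p and let-7a-1-3p pair and by let-7f-1-3p, and also by let-7b-3p and miR-98-3p, which are outside the set. The closest distinct members are let-7a-1-3p and let-7f-2-3p, with the single difference A8G over 21 positions (the base of the first-named arm, the position, the base of the second), which lies in the seed. Next come let-7a-2-3p and let-7c-1-3p (G8A, C12U) and let-7a-2-3p and let-7e-3p (G3A, A7G), with 2 differences each. The most abundant member, let-7d-3p, differs from each other member at 5 or 6 positions. How many mismatches the authors' counting allowed is not given in the sources used here, so low counts of the near-identical members are uncertain.

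The let-7d hairpin (Mirlet7d, chr13:48536012-48536114, minus strand, GRCm38) carries most of the members' 3p reads and is printed with both arms in capitals, the 5p arm first.
Mirlet7d: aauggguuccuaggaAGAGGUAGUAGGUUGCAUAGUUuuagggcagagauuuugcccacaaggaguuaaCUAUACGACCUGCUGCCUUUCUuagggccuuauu
In GENCODE M21 it overlaps an exon of the lincRNA 6720427I07Rik on the same strand. So do Mirlet7f-1, with 1714 bases between it and Mirlet7d, and Mirlet7a-1, with 2064. The let-7c-2-3p copy of the shared sequence lies in Mirlet7c-2 on chromosome 15, over an exon of Lncppara and 621 bases from Mirlet7b. The other members are intronic on their host's strand: Mirlet7a-2 in 3110039I08Rik and Gm49317 (chromosome 9), Mirlet7c-1 in Mir99ahg (chromosome 16), Mirlet7e in Spaca6 (chromosome 17) and Mirlet7f-2 in Huwe1 (chromosome X). Mirlet7c-1 also lies opposite an intron of Gm11146. Within 10 kb on the same strand lie Mir100 for Mirlet7a-2, Mir99a for Mirlet7c-1, Mir99b and Mir125a for Mirlet7e, and Mir98 for Mirlet7f-2. On the opposite strand the annotated miRNA genes Gm24111 and Gm25927 overlap Mirlet7f-1 and Mirlet7e.

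Libraries held 104064 to 172279 miRNA reads in BAT and 1209116 to 1798169 in plasma. The brown fat markers (6 miRNAs, among them miR-193b-3p and miR-378a-3p) took 23.0% to 30.1% of miRNA reads in Exe BAT and 6.69% to 23.3% in Sed BAT, the low value in Sed replicate 2, which stands apart from the other BAT libraries. The larger part of that share was miR-378a-3p in every BAT library. Of the 6 markers, 3 had log2 fold changes (Exe against Sed) above 0 in BAT and 3 below. In plasma the brown fat markers took at most 0.501%, with 1 to 4 of the 6 read at all, against all 6 in every BAT library. Red cell markers (7 miRNAs) took 3.50% to 7.19% of BAT reads, 52.8% to 70.1% of Sed plasma reads and 14.1% to 14.99% of Exe plasma reads. The plasma share was mostly miR-451a, whose log2 fold change there was -3.03, so its fall is not that of the whole list. Of the 6 red cell markers tested in plasma, 4 lay above 0 and 2 below, with a median of 2.72, and none was called. The 4 include miR-486a-5p and miR-486b-5p, which have identical reads. Leukocyte markers (5 miRNAs) took 0.156% to 0.211% in Sed plasma and 1.98% to 2.25% in Exe plasma, and liver markers (4 miRNAs) 0.112% to 0.140% in Sed BAT and 0.121% to 0.238% in Exe BAT. Muscle markers (4 miRNAs) took 2.90% to 5.50% in Sed BAT and 2.46% to 3.50% in Exe BAT. The red cell, leukocyte and brown fat shares separated Sed from Exe in plasma, while the BAT shares of the lists named here overlapped between the groups. The part of such differences in the results below was not tested. Fewer vesicles of a kind and less of a miRNA per vesicle cannot be told apart in such libraries.

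The 7 distinct members together were a small part of vesicle miRNA in BAT, with 113, 136 and 65 reads in Sed against 176, 267 and 225 in Exe. Scaled to reads per 1000000 miRNA reads, that is 667, 1307 and 560 in Sed and 1510, 1681 and 1306 in Exe, so the groups touch at Sed replicate 2. Most of it was let-7d-3p, which made up 83.2% to 90.4% of the members' reads in Sed BAT and 72.7% to 77.3% in Exe BAT. The shared pair followed with 152 reads over the 6 libraries, let-7e-3p with 26, let-7f-2-3p with 13, let-7c-1-3p with 9, let-7a-2-3p with 3 and let-7f-1-3p with 2. Arms from the 6720427I07Rik locus were thus read very unequally, 777 times for let-7d-3p against 2 for let-7f-1-3p.

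In BAT vesicles the 3 Sed libraries held 94, 123 and 58 reads of let-7d-3p, and the 3 Exe libraries 136, 194 and 172. Whether the groups overlap depends on the scale. In reads per 1000000 miRNA reads, Sed replicate 2 (1182) lies above Exe replicate 3 (998), whereas on the TMM scale used by the fit, which corrects for composition, counts per 1000000 (CPM) were 530 to 927 in Sed and 1087 to 1263 in Exe without overlap. The deposited RPM values, found to be scaled to 1 total per library, were 4.61, 5.81 and 2.82 in Sed and 7.19, 9.995 and 9.03 in Exe. They did not overlap either. Mean CPM was 686 ± 211 in Sed and 1180 ± 88.3 in Exe (SD, n = 3 each). The log2 fold change was 0.78 ± 0.27 (SE). It was 1.13 ± 0.30 without Sed replicate 2.

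The let-7c-2-3p and let-7a-1-3p pair had fewer reads and a wider gap. Its counts were 16, 10 and 3 in Sed against 32, 50 and 41 in Exe, which is 94.5, 96.1 and 25.8 against 274, 315 and 238 per 1000000 miRNA reads. Every Exe library lay above every Sed library, with the lowest level in Sed replicate 3. Mean CPM was 68.4 ± 38.0 in Sed and 288 ± 33.9 in Exe (SD, n = 3 each). That is a log2 fold change of 2.01 ± 0.39 (SE). The 2 hairpins that share this sequence lie on chromosomes 13 and 15, and the reads cannot be assigned to either.

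Only these 2 of the 7 distinct members passed the filter on low counts. Across the 199 miRNAs tested, 9.55% were past the threshold of edgeR's quasi-likelihood test (adjusted p under 0.05) and higher in Exe, and the pair was among them while let-7d-3p was not. Calls split into 19 higher and 26 lower, and into 26 and 20 with upper-quartile factors or 25 and 13 with the totals implied by RPM. Groups without overlap and higher in Exe, per 1000000 miRNA reads, were found for 14.2% of the 197 miRNAs with a mean of at least 10 reads. The contrast was known when the set was proposed, so nothing is read from these calls. The median log2 fold change over all tested miRNAs was -0.06.

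**Figure D1:**
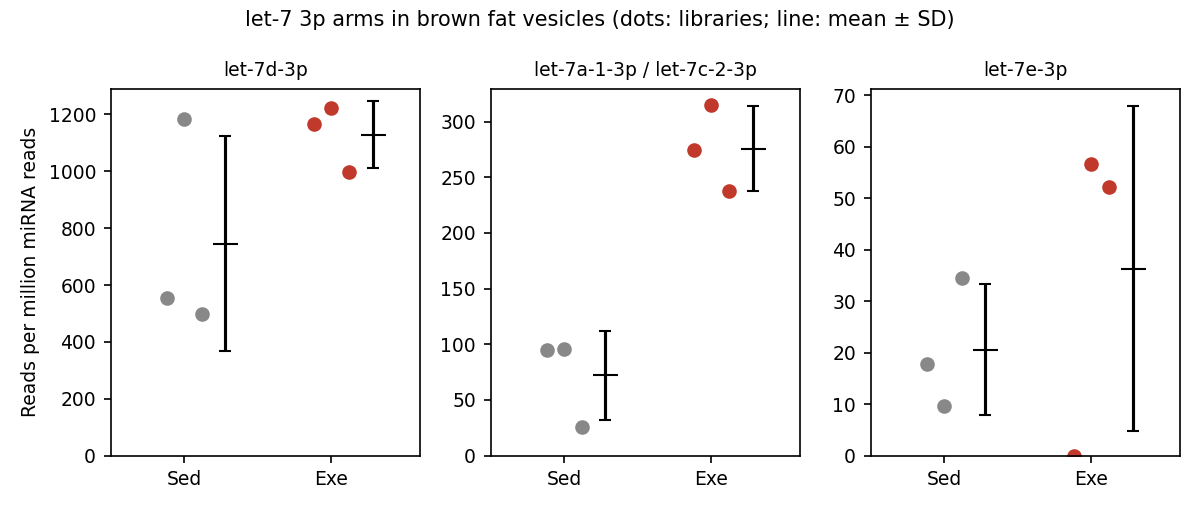
Reads per 1000000 miRNA reads (y axis, linear, each panel with its own scale from 0) of let-7d-3p, the let-7c-2-3p and let-7a-1-3p pair and let-7e-3p in Sed and Exe BAT libraries. Dots are libraries and bars are the mean ± SD of 3. The pair separates the groups, let-7d-3p overlaps through 1 Sed library at 1182, and let-7e-3p has 1 Exe library at 0.

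The remaining members were close to the limit of detection in BAT, where 3 reads correspond to 17.4 to 28.8 reads per 1000000 miRNA reads, depending on the library. For let-7e-3p the Sed libraries had 3, 1 and 4 reads and the Exe libraries 0, 9 and 9, so the groups overlapped. The depth-scaled ratio of summed reads, Exe to Sed, was 1.96 with an exact 95% counting interval of 0.81 to 5.20. For let-7f-2-3p no Sed library had a read and the Exe libraries had 1, 9 and 3, at least 3.77-fold higher if Sed is set to a floor of 3 counts for the group. This member is 1 base from the pair, which has 123 reads in Exe. Counts of let-7c-1-3p were 0, 2 and 0 in Sed and 5, 2 and 0 in Exe, a ratio of 3.05 with an interval of 0.58 to 30.04. Neither let-7a-2-3p (1, 2 and 0 reads in Exe) nor let-7f-1-3p (1, 1 and 0) had a read in Sed, and no fold is given because both groups are at or under the floor. These intervals and floors hold for counting error only.

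The guide arms lay the other way in BAT vesicles. Of 9 let-7 and miR-98 5p arms tested, all had log2 fold changes below 0 and 6 were past the threshold, where 13.1% of all tested miRNAs were called lower. Of members' guides, let-7c-5p was at -1.61, the most negative of the 6, let-7a-5p at -1.10 and let-7f-5p at -1.07. The 3 others were let-7b-5p (-1.52), miR-98-5p (-0.93) and let-7i-5p (-1.01). The guides of let-7d and let-7e were at -0.58 ± 0.26 and -0.78 ± 0.29 (SE). The 5 guides that pair with members took 9.85%, 17.3% and 7.50% of miRNA reads in Sed BAT and 4.84%, 5.26% and 3.99% in Exe BAT. The highest value was again that of Sed replicate 2.

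**Figure D2:**
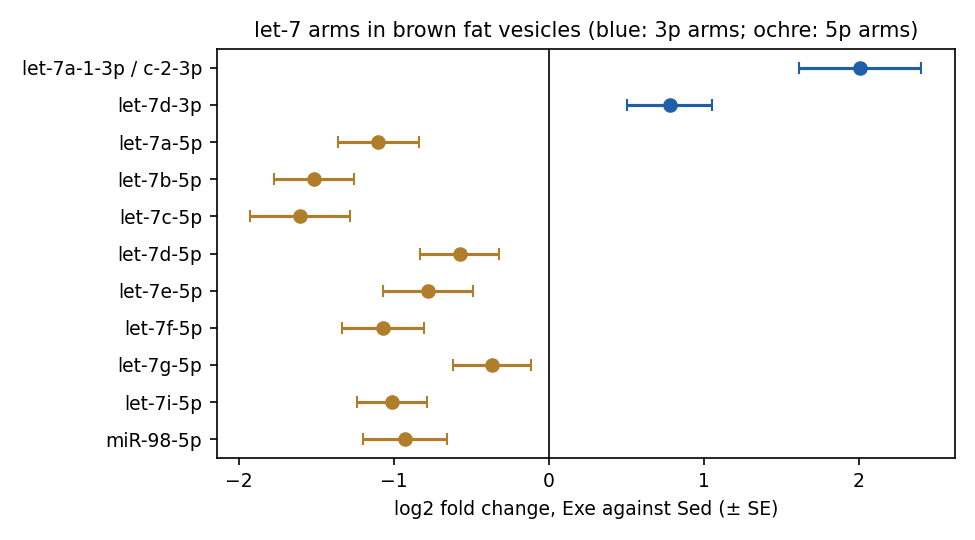
Log2 fold change of Exe against Sed (x axis, ± SE from edgeR) for the let-7 and miR-98 arms tested in BAT vesicles, 3p arms in blue and 5p arms in ochre. The 3p values are 2.01 and 0.78, and the 9 values of 5p arms lie below 0.

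A share of reads within 1 hairpin needs no scaling between libraries, and mouse let-7d has 1 hairpin. The 3p arm took 4.36%, 4.34% and 4.10% of let-7d reads in the Sed BAT libraries and 10.2%, 10.1% and 10.7% in the Exe BAT libraries. The group means were 4.27% ± 0.145 and 10.3% ± 0.331 (SD, n = 3 each). Sed replicate 2 is level with the other Sed libraries by this measure, although it stands apart in total let-7 reads. The counting intervals of single libraries reach from 3.13% to 5.31% in Sed and from 8.59% to 12.3% in Exe, wider than the spread between the libraries. Summed over the 7 members and their 5 guides, the 3p share was 0.673%, 0.751% and 0.741% in Sed and 3.02%, 3.10% and 3.17% in Exe. The let-7e share was 0.943%, 0.431% and 3.20% in Sed and 0% (0 of 85 reads, which allows up to 3.53% by the floor of 3 counts and 4.25% by the exact interval), 5.08% and 5.42% in Exe, and its groups overlapped.

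**Figure D3:**
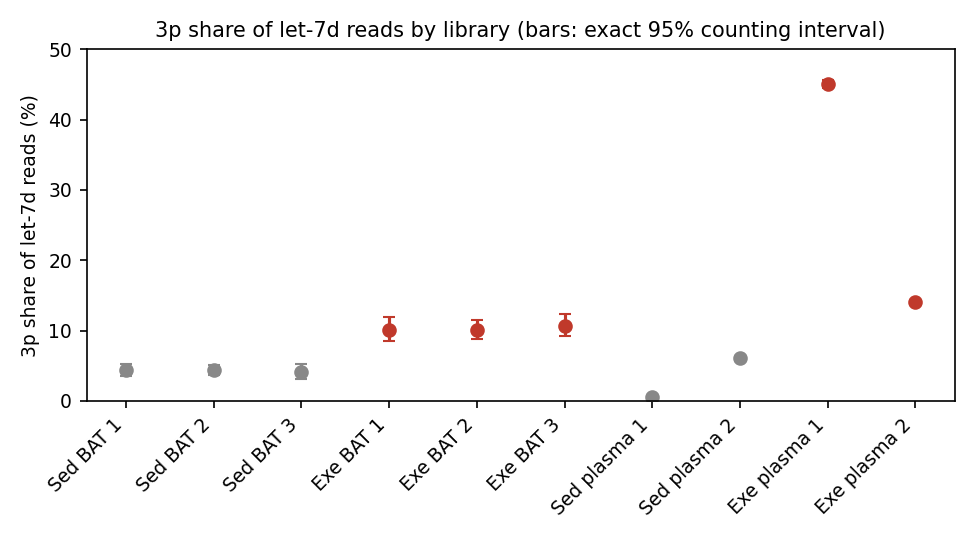
Share of let-7d-3p among let-7d reads of both arms (y axis, percent) in each of the 10 libraries, with exact 95% counting intervals. The Sed BAT libraries sit between 4.10% and 4.36% and the Exe BAT libraries between 10.1% and 10.7%, while the plasma libraries spread from 0.510% to 45.1%.

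Other hairpins give the frame for that shift. Among 39 hairpins with both arms named alike and at least 50 reads in every BAT library, the minor arm's share was higher in every Exe library than in every Sed library for 7 (17.9%), let-7d among them, and lower for 2 (5.13%). With reads summed by group, the log2 ratio of minor to major arm was higher in Exe by 1.36 for let-7d, rank 8 of 39, and by 1.82 for let-7e, rank 4, with a median of 0.20 over the 39. The higher ranks included miR-322, miR-191 and miR-193a, so shifts of this size were not limited to let-7. The family's other hairpins among the 39 also lay above the median. These were miR-98 at 1.55 (rank 5), let-7i at 1.08 (rank 11) and let-7g at 0.80 (rank 12), each with few minor-arm reads and overlapping groups. The neighbours of Mirlet7c-1 and Mirlet7e lay below the median, also with few minor-arm reads. There miR-99a was at -3.09 (rank 39, every Exe library lower) and miR-99b at -0.62 (rank 32, groups overlapping). In the fit, 27 minor arms were tested and 3 were called higher and 1 lower, with a median of 0.22, against 9 higher and 13 lower of 112 major arms, with a median of -0.03.

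**Figure D4:**
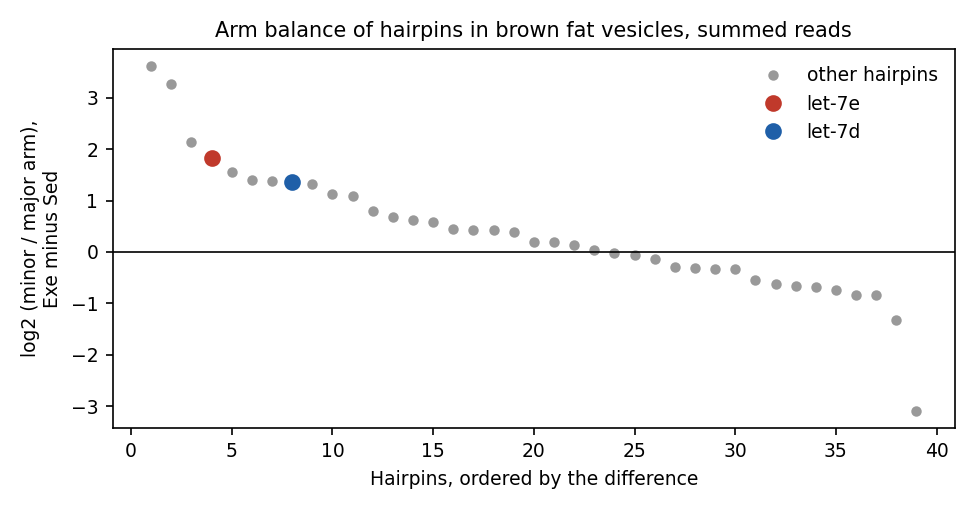
Difference between Exe and Sed BAT vesicles in the log2 ratio of minor to major arm reads (y axis) for 39 hairpins ordered from highest to lowest (x axis). let-7e (red) is at 1.82 and let-7d (blue) at 1.36, among 23 hairpins above 0.

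Over the 6 BAT libraries, the miRNAs whose log2 CPM followed that of the pair most closely were miR-128-3p (Pearson r = 0.97), miR-26a-2-3p (0.94), miR-500-3p (0.90), miR-185-5p (0.90) and miR-425-3p (0.90), with let-7d-3p in sixth place (0.88). The closest to let-7d-3p were miR-30c-5p (0.97), miR-30b-5p (0.97), miR-676-3p (0.96), miR-139-5p (0.94) and miR-338-3p (0.93). The 5 guide arms had r between -0.74 and -0.47 with the pair and between -0.65 and -0.29 with let-7d-3p. The libraries share scaling and 2 groups, so these values are a description of 6 points. None of the 7 3p arms in a list of miRNAs from let-7 clusters (miR-98, miR-99a, miR-99b, miR-100, miR-125a and miR-125b) passed the filter in BAT, and each had at most 14 reads in a library. The 6 corresponding 5p arms had a median log2 fold change of -0.05, with 1 called, miR-98-5p.

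In plasma vesicles let-7d-3p was far more abundant in the Exe libraries. Its counts were 59 and 941 in Sed against 14873 and 7446 in Exe, which is 44.0 and 523 against 12301 and 4216 per 1000000 miRNA reads. Both Exe values lay above both Sed values, but the share of all plasma miRNAs for which that holds was not counted. The replicates of a group differed widely, most of all in Sed. Mean CPM on the TMM scale was 301 ± 328 in Sed and 6138 ± 3045 in Exe (SD, n = 2 each). The log2 fold change of 4.35 ± 1.37 (SE) had an adjusted p of 0.0967 in edgeR's quasi-likelihood test, which does not pass, and the median over all tested miRNAs was 0.32. In that test 0.0% of 182 miRNAs were called, and 60 had an unadjusted p under 0.05, let-7d-3p among them (0.0198). DESeq2 called let-7d-3p (4.14, adjusted p = 0.0131) and 57 miRNAs in all. Over the alternatives the adjusted p ranged from 1.3e-05 to 0.227 and the log2 fold change from 3.27 to 6.45. The call was made with edgeR without Sed replicate 1 (3.59) and without Sed replicate 2 (6.45), where the remaining Sed library is assumed to vary like the other groups.

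The second whole number that the plasma table gives beside each read count, which may count distinct reads or molecules, was 19 and 87 for let-7d-3p in Sed and 13248 and 6998 in Exe. It is 32.2% and 9.25% of the reads in Sed and 89.1% and 94.0% in Exe. Over all miRNAs, the second numbers summed to 405717 for 1341678 reads (Sed replicate 1) and 84021 for 1798169 (Sed replicate 2). For Exe replicates 1 and 2 they summed to 858401 for 1209116 and 1078779 for 1766070. A lower fraction in Sed than in Exe plasma therefore held for the library totals as well, not for let-7d-3p alone. With these values in place of reads the log2 fold change was 4.38 ± 1.42 (SE, adjusted p = 0.0401).

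The other members were all or nothing in single plasma libraries. The let-7c-2-3p and let-7a-1-3p pair was read 0 and 2 times in Sed, and 0 and 429 times in Exe, where all its reads lay in replicate 2. By contrast let-7e-3p had 549 reads in Exe replicate 1 and 0 in the other 3 libraries, where 3 reads correspond to 1.67 to 2.24 reads per 1000000 miRNA reads. Neither difference between groups is therefore larger than that between replicates, and both members were left out by the filter. Summed by group, the pair's ratio of Exe to Sed was 226 with a counting interval of 62.3 to 1875, and let-7e-3p was at least 193-fold higher with Sed at the group floor of 3 counts, both resting on 1 library. Single reads were found of let-7c-1-3p (Exe replicate 1) and let-7f-2-3p (Exe replicate 2). The same split was common in plasma: of 166 miRNAs with at least 100 reads in an Exe plasma library, 41 (24.7%) had 0 in the other one. In Sed plasma it was 9 of 116 (7.76%), and 0 in Sed BAT and Exe BAT, of 93 and 83.

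**Figure D5:**
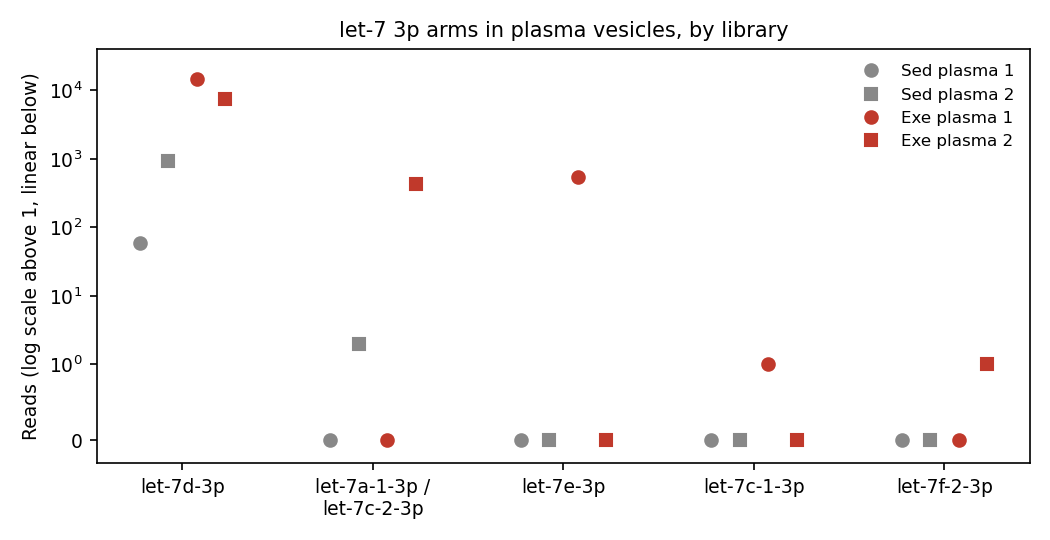
Reads of the members in each plasma library (y axis, log scale above 1 and linear below), Sed in grey and Exe in red, replicate 1 as circles and replicate 2 as squares. let-7d-3p has reads in all 4 libraries, whereas the pair's 429 reads and the 549 reads of let-7e-3p each come from 1 Exe library.

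The guides of the members also took a larger share in Exe plasma, the reverse of BAT. The 5 guides took 3.11% and 5.78% of miRNA reads in Sed plasma and 28.5% and 29.5% in Exe plasma. The rise was uneven, with log2 fold changes of 3.26 for let-7c-5p, 2.50 for let-7a-5p, 1.86 for let-7e-5p and 0.49 for let-7f-5p. In Exe plasma let-7c-5p alone had 205666 and 252301 of the 344695 and 520827 guide reads. Of the 9 5p arms tested, 8 had log2 fold changes above 0 and none was called, with a median of 0.67. The guide let-7d-5p was at 0.67 ± 0.72 (SE, adjusted p = 0.54), against 4.35 for its passenger. The let-7d 3p share was 0.510% and 6.06% in Sed plasma and 45.1% and 14.0% in Exe plasma, so in Exe replicate 1 the passenger was read nearly as often as the guide (14873 against 18136). Groups did not overlap for let-7d, and the same holds, in the same direction, for 23.1% of 26 hairpins. The let-7d shift of 3.19 in the log2 ratio of summed reads ranked 14 of 26 and was close to the median of 3.28. For let-7e the share was 0% in both Sed libraries (0 of 71 and 0 of 294 reads, which allow up to 4.23% and 1.02% by the floor of 3 counts, or 5.06% and 1.25% by the exact interval) and in Exe replicate 2 (0 of 469, up to 0.64% or 0.783%), and 31.9% in Exe replicate 1.

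BAT and plasma vesicles were compared in a joint fit over the 231 tested miRNAs listed in both tables, where the vesicle source cannot be told apart from the table or from how its libraries were sequenced. In the Sed libraries neither tested member differed beyond the spread. For let-7d-3p the log2 difference, BAT minus plasma, was -1.35 ± 0.90 (SE, adjusted p = 0.248 in edgeR's quasi-likelihood test). Its sign is not settled, since it was 1.40 with library size alone and 1.22 without Sed plasma replicate 2, and it was called only without Sed plasma replicate 1 (-2.19, adjusted p = 0.026). The median over all tested miRNAs was 1.16 and moved to 3.77 with library size alone, so relative to the median let-7d-3p was at -2.51 and -2.36 under the respective scalings. The pair was at 4.04 ± 2.11 (adjusted p = 0.155), from 29 reads in BAT against 2 in plasma despite the smaller BAT libraries, a depth-scaled ratio of 117 with a counting interval of 29.6 to 1011. It passed with DESeq2, with library size alone and with a spread for each source in limma-voom. In this contrast 21.2% of all tested miRNAs were called higher and 20.3% lower in BAT, 41.6% in all. The split of 49 higher and 47 lower became 135 and 14 with library size alone, 98 and 49 with DESeq2 and 59 and 37 with limma-voom.

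In the Exe libraries let-7d-3p was lower in BAT than in plasma vesicles, with a log2 difference of -4.38 ± 0.97 (SE, adjusted p = 0.00363 in edgeR's quasi-likelihood test). The Exe BAT counts were known when the set was chosen, so this p-value is a description as well. All 3 BAT libraries, at 998 to 1222 per 1000000 miRNA reads, lay below both plasma libraries, at 4216 and 12301. The call was made in each of 15 alternatives, with values from -4.64 to -2.86, but 26.0% of all tested miRNAs were called lower in BAT here, 40.3% higher and 66.2% in all. The 93 higher and 60 lower calls became 112 and 40 with upper-quartile factors and 113 and 37 with library size alone. The guide let-7d-5p was lower in BAT as well, by -2.46 ± 0.41 (SE, adjusted p = 0.000996). The pair was at -0.11 ± 1.59 (adjusted p = 0.97), its plasma reads all in 1 library, and it was 1.20 with library size alone. The median over all tested miRNAs moved from 0.87 to 2.29 between these scalings, so relative to the median the pair was at -0.98 and -1.09. Without Exe plasma replicate 2 the plasma group has 0 reads of the pair, which is then at least 111-fold higher in BAT against a plasma floor of 3 counts. The Exe against Sed log2 difference in BAT minus that in plasma was -3.03 ± 1.32 (SE) for let-7d-3p. For the pair it was -4.15 ± 2.55 (SE), which rests on the 429 reads of Exe plasma replicate 2. Both are given as a description.

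Arm shares in BAT lay within the range of those in plasma. The summed 3p share was 1.91% ± 1.30 in BAT (SD, n = 6) and 1.70% ± 1.81 in plasma (SD, n = 4), a difference of 0.205 percentage points (two-sided exact permutation test, p = 0.848, with 0.00952 the lowest that 6 against 4 can give). For let-7d the shares were 7.29% ± 3.32 and 16.4% ± 19.9 (exact permutation p = 0.419). For let-7e they were 2.51% ± 2.39 and 7.98% ± 16.0 (exact permutation p = 0.8). Each of the 3 p-values was 0.848 after Benjamini-Hochberg adjustment over the 3. These tests pool Sed and Exe libraries, so their spread includes the difference between those groups. In the Exe libraries alone every BAT let-7d share, at 10.1% to 10.7%, lay below both plasma shares, 14.0% and 45.1%. The difference was -19.2 percentage points (exact permutation p = 0.2, also the lowest possible with 3 against 2). In the Sed libraries alone let-7e-3p had reads in all 3 BAT libraries and in neither plasma library, a difference of 1.52 percentage points (exact permutation p = 0.2, the lowest that 3 against 2 can give). The floors of the plasma libraries, 4.23% and 1.02%, reach into the BAT range.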

How the data were processed

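Small RNA reads of each vesicle source come as 1 table in which the authors give each mature miRNA a count in each library, per the file headers. The BAT table as deposited also gives RPM, found to equal the count over 1 total per library, and the plasma table a second whole number (how it was made is not given in the sources used here). Per the labels, RNA was extracted with Trizol. The submitters' processing notes name Bowtie 0.12.2 and the builds mm8 and mm9 without a role. Counts were analysed with R 4.3.3, edgeR 4.0.16 (TMM, filterByExpr, robust quasi-likelihood fit, Benjamini-Hochberg over all miRNAs tested, adjusted p under 0.05), limma 3.58.1 and DESeq2 1.42.0. The SE is the log2 fold change over the square root of F. Exe against Sed was fitted within each table, and sources in a joint fit of the 4 groups. Shares have exact (Clopper-Pearson) 95% intervals, and permutation tests used scipy 1.17.1. PCR copies are not independent, so intervals and floors (3 counts) cover counting error only. Likeness used log2 CPM with a prior count of 2. The minor arm of a hairpin is the arm with fewer reads over a table, with at least 10 reads for each arm. The fits were tested on simulated data.

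Named were all members, the 5p arms of their hairpins, 5p arms past the threshold, the 5 most alike miRNAs for each of 2 members and marker miRNAs as examples. Chosen after their values were seen were miR-322, miR-191, miR-193a, the arm shares of miR-99a and miR-99b, and the let-7 and miR-98 3p arms outside the set. The members, lists and tests were chosen with earlier results of these data known. Alternatives were DESeq2, limma-voom, no filter, library size alone, upper-quartile factors, means of 50 counts or more, identical rows counted once, leaving out the 3 most abundant miRNAs, a replicate block, the second plasma values and leaving out each library. Library totals implied by RPM and a spread for each source were chosen after seeing the data.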

Additional observations from a re-analysis of the deposited data

How the results depend on the processing

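The number of distinct members past the threshold, in BAT vesicles a description only, was 1 there, 2 with no filter, 0 with means of 50 counts or more, where only let-7d-3p was tested, and 1 to 2 with a library left out (2 without Sed replicate 2). In plasma it was 0, and 1 with DESeq2, no filter, means of 50 counts or more or the second plasma values, and 0 to 1 with a library left out, where the 1 without Exe replicate 1 is the pair, tested only once the Exe library without its reads is dropped. For BAT against plasma in Sed it was 0, and 1 with library size alone, DESeq2 or a spread for each source, and 0 to 1 with a library left out; in Exe it was 1, and 2 with no filter and 1 to 3 with a library left out (3 without Exe plasma replicate 2, let-7e-3p and the pair joining let-7d-3p). In Exe the pair went from -0.11 to 0.65 (upper-quartile factors), 1.20 (library size alone), 0.305 (DESeq2), 3.29 (limma-voom), 0.97 (means of 50 counts or more), 1.35 (replicate block) and 3.24 (a spread for each source), and spanned -1.06 to 9.16 with a library left out, the highest being a fitted value against 0 plasma reads. Each of these named settings moved the median of all miRNAs as well. Relative to it the pair was at -1.59, -1.09, -1.24, 0.37, 1.43, 0.0 and 0.28 in that order, against -0.98. Its place there was therefore not settled either. In Sed let-7d-3p reversed with library size alone (1.40) and spanned -2.19 to 1.22 with a library left out. The difference of exercise effects of let-7d-3p spanned -5.47 to -1.84. The difference in summed 3p share spanned -0.316 to 1.06 with a library left out, that of let-7d -14.4 to 0.42 (0.98 in Sed only, -19.2 in Exe only) and that of let-7e -8.13 to 2.51 (1.52 in Sed only, -12.5 in Exe only, 1.14 as a log2 ratio). The causes of the other changes were not tested.

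Over all miRNAs, the 45 calls in BAT were 21 with means of 50 counts or more, 25 with the replicate block, 22, 28 and 16 without Exe replicates 1, 2 and 3; the 153 in Exe between sources were 82 with means of 50 counts or more; and the 96 in Sed were 149 with library size alone and 147 with DESeq2. The 0 in plasma were 57 with DESeq2, 35 with limma-voom, 29 with means of 50 counts or more, 17 with no filter, 11 with the second values, 10 with library size alone, 7 with the block, 4 with upper-quartile factors, 1 without the 3 most abundant miRNAs, and 3 to 27 with a library left out. With the replicate block the member counts stayed at 1 in BAT, 0 in plasma, 0 between sources in Sed and 1 in Exe. Same-numbered deviations of Sed and Exe libraries correlated at -0.12 to 0.004 in BAT, so no pairing by number was seen there. In plasma the value was -0.08, but with 2 libraries per group the deviations mirror each other and cannot decide it. Pairing between sources was not tested. Scaling moved the median log2 fold change in BAT by 0.14 (upper-quartile factors), -0.13 (library size alone) and 0.19 (totals implied by RPM), and in plasma by -0.91 (upper-quartile factors) and 0.63 (library size alone). Relative to the median, the pair stayed at 2.05 to 2.09 and let-7d-3p at 0.79 to 0.85 in BAT under these 3 scalings. Depth limits the 5 members with at most 26 BAT reads.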

Other observations

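The 3p arms of the family that are outside the set were also rare. In BAT vesicles the Sed libraries held 2, 4 and 10 reads of let-7i-3p against 7, 4 and 7 in Exe, let-7g-3p had 2, 0 and 2 against 2, 0 and 4, and miR-98-3p had 1, 4 and 1 against 4, 5 and 1. The groups overlapped for each of the 3. Of these, let-7g-3p was not listed in the plasma table, and let-7i-3p had 10 and 0 reads in Sed plasma and 4 and 0 in Exe plasma.

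In plasma miR-98-3p had the library pattern of the let-7c-2-3p and let-7a-1-3p pair: 0 and 2 in Sed, then 0 and 455 in Exe, where the pair has 0, 2, 0 and 429. Both carry the seed UAUACAA, shown in capitals below with the sequence of miR-98-3p from RefSeq (GRCm38.p6), and they differ at 7 of 22 positions.
miR-98-3p: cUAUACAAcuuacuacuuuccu
The hairpins lie on chromosome X for miR-98 and on chromosomes 13 and 15 for the pair. The likeness was noticed after the values were seen and was not tested.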
